A study of Arabidopsis thaliana with 14 samples.

Results

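Class III peroxidases are a large family of secreted plant enzymes. Here they are the Arabidopsis loci of a list of 60 codes, and a member is a locus that is the only gene named by its probe set on the array. Of the 60 listed loci, 43 had such a probe set and make up the members. A further 6 shared 3 probe sets that each name a pair of loci, and 11 are not analysed here because no named probe set reads them. The 43 members compare with 22746 probe sets in all, of which 13436 name 1 gene. Signal was high enough for testing in 36 members, and the other 7 are given by their range. Members go by their locus code or, for some, by a symbol that is given with its code.

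Class III peroxidases use hydrogen peroxide to oxidise phenolic compounds, and several of them couple monolignols into lignin in the cell wall. They can stiffen a wall by cross-linking its polymers, and they can also produce or consume reactive oxygen species. In roots they are known from the lignified Casparian strip of the endodermis, from xylem and from growing root hairs. Boron itself cross-links the pectin rhamnogalacturonan II in the wall.

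The study asked how root transcripts respond to boron limitation. All plants were Arabidopsis thaliana of the Col-0 ecotype, grew for 10 days with 100 µM boron, then spent 2 days on 0.3 µM (low) or 100 µM (sufficient) boric acid, and were 12 days old when their roots were taken. Transcripts were read on Affymetrix ATH1 arrays, which measure each gene by a set of short oligonucleotides. NIP5;1, a boric acid channel that takes up boron in roots, was mutated in 4 genotypes: nip5;1, nip5;1 bor1, nip5;1 bor2 and nip5;1 nip6;1. They are called channel mutants here, and the labels describe inhibited root and shoot growth in them when boron is limiting. NIP5;1 was intact in bor1, bor2 and wild type, called the intact class. BOR1 and BOR2 are borate exporters and NIP6;1 is a related channel of the shoot. The labels describe impaired rosette leaf expansion in bor1, and short roots in bor2, on reduced boron. Each genotype had 1 array at each boron level, 14 in all, so p-values measure the spread between genotypes and no single genotype has a replicate check.

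The ratio of 3′ to 5′ signal of the GAPDH control probe sets, which rises as RNA degrades, averaged 1.68 ± 0.167 on the low-boron arrays and 1.44 ± 0.201 on the sufficient ones (SD, n = 7 each). In 5 of 7 genotypes the low-boron array had the higher ratio (exact two-sided sign-flip p = 0.0938), and its part in the results below was not tested beyond the fits with it as a covariate. The root hair expansins EXPA7 and EXPA18 were present on every array at 862 signal units or more. Whole roots were profiled, so fewer cells of a type and less RNA per cell cannot be told apart. The bor2 array at 0.3 µM stood apart for several members and is described on its own, with the results that change without it. Values are MAS5 signal units on a linear scale, differences are log2 values, and a member is said to have risen or fallen where limma's Benjamini-Hochberg adjusted p over 13648 tested probe sets was under 0.05.

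The widest response belonged to PRX52 (AT5G05340), a peroxidase known from lignin synthesis in stems. Its signal at 0.3 µM was 409 units in nip5;1 and 545, 279.6 and 472 in its bor1, bor2 and nip6;1 double mutants, against 19.9, 53.9, 78.0 and 28.4 units at 100 µM in the same order. All 4 low-boron arrays of the mutants therefore lay above all 4 sufficient ones. In the intact class the signal at 0.3 µM was 129 units in bor1, 229 in bor2 and 39.1 in wild type, against 12.4, 15.3 and 20.3 units at 100 µM. These groups did not overlap either, and the difference was smallest in wild type (0.95). PRX52 rose by 3.40 (SE 0.44, adjusted p = 0.0017) in the channel mutants, 10.5-fold. The intact class had 2.38 (SE 0.50, adjusted p = 0.151), which missed the threshold. The responses of the classes differed by 1.01 (SE 0.67, adjusted p = 0.823). Signals under 20 units were set to 20 before the fits, which touched 3 of the 7 sufficient-boron arrays for PRX52 and understates its change. Testing also required a mean of at least 113 units over all arrays. PRX52 averaged 300 units at 0.3 µM and 32.6 at 100 µM, so only its low-boron arrays carried it past that filter. Its tests are therefore not independent of the filter, and without it the rise in the mutants missed the threshold (adjusted p = 0.0725).

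AT5G06730 was the member whose response differed between the classes. At 0.3 µM it had 421 units in nip5;1 and 475, 309 and 437 in its bor1, bor2 and nip6;1 double mutants, against 122, 117, 83.5 and 79.4 units at 100 µM. In the intact class it had 166 units in bor1, 258 in bor2 and 115 in wild type at 0.3 µM, against 132, 155 and 114 units at 100 µM. The mutant arrays at low boron exceeded all others, and the wild type arrays were almost equal. The rise in the mutants was 2.04 (SE 0.15, adjusted p = 4.83e-05) and the value in the intact class was 0.35 (SE 0.18, adjusted p = 0.626). The difference of 1.69 (SE 0.23) passed the threshold (adjusted p = 0.0241). It did not pass without wild type, bor1, nip5;1 or its bor1 or nip6;1 double mutant (adjusted p up to 0.159), and its size then ran from 1.51 to 1.88 over all 7 genotypes left out in turn. The neighbouring peroxidase AT5G06720 has no named probe set of its own, and whether the probes also read it was not tested.

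AT4G36430 reached 4594 units in nip5;1 and 5349, 2637 and 5277 in its bor1, bor2 and nip6;1 double mutants at 0.3 µM, against 1403, 1668, 1106 and 1335 units at 100 µM. The intact class had 1559 units in bor1, 4159 in bor2 and 1787 in wild type at 0.3 µM, against 1555, 1914 and 1530.0 units at 100 µM. Within that class the bor2 array alone was high at low boron. The rise in the mutants was 1.66 (SE 0.16, adjusted p = 0.000372) and the value in the intact class 0.45 (SE 0.19, adjusted p = 0.568). The difference was 1.21 (SE 0.25, adjusted p = 0.142), and 1.54 (adjusted p = 0.0115) with bor2 left out.

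Prx37 (AT4G08770), whose overexpression is known to dwarf plants, had 2792 units in nip5;1 and 3045, 2358 and 2478 in its bor1, bor2 and nip6;1 double mutants at 0.3 µM. At 100 µM these genotypes had 1237, 1705, 1671 and 694 units, all lower. The intact class had 2001 units in bor1, 3386 in bor2 and 1553 in wild type at 0.3 µM, against 1819, 2082 and 1485 units at 100 µM. Prx37 rose by 1.09 (SE 0.18, adjusted p = 0.0065) in the mutants, and the intact class had 0.30 (SE 0.21, adjusted p = 0.755). With the GAPDH ratio as a covariate its mutant response had an adjusted p of 0.0821.

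**Figure D1:**
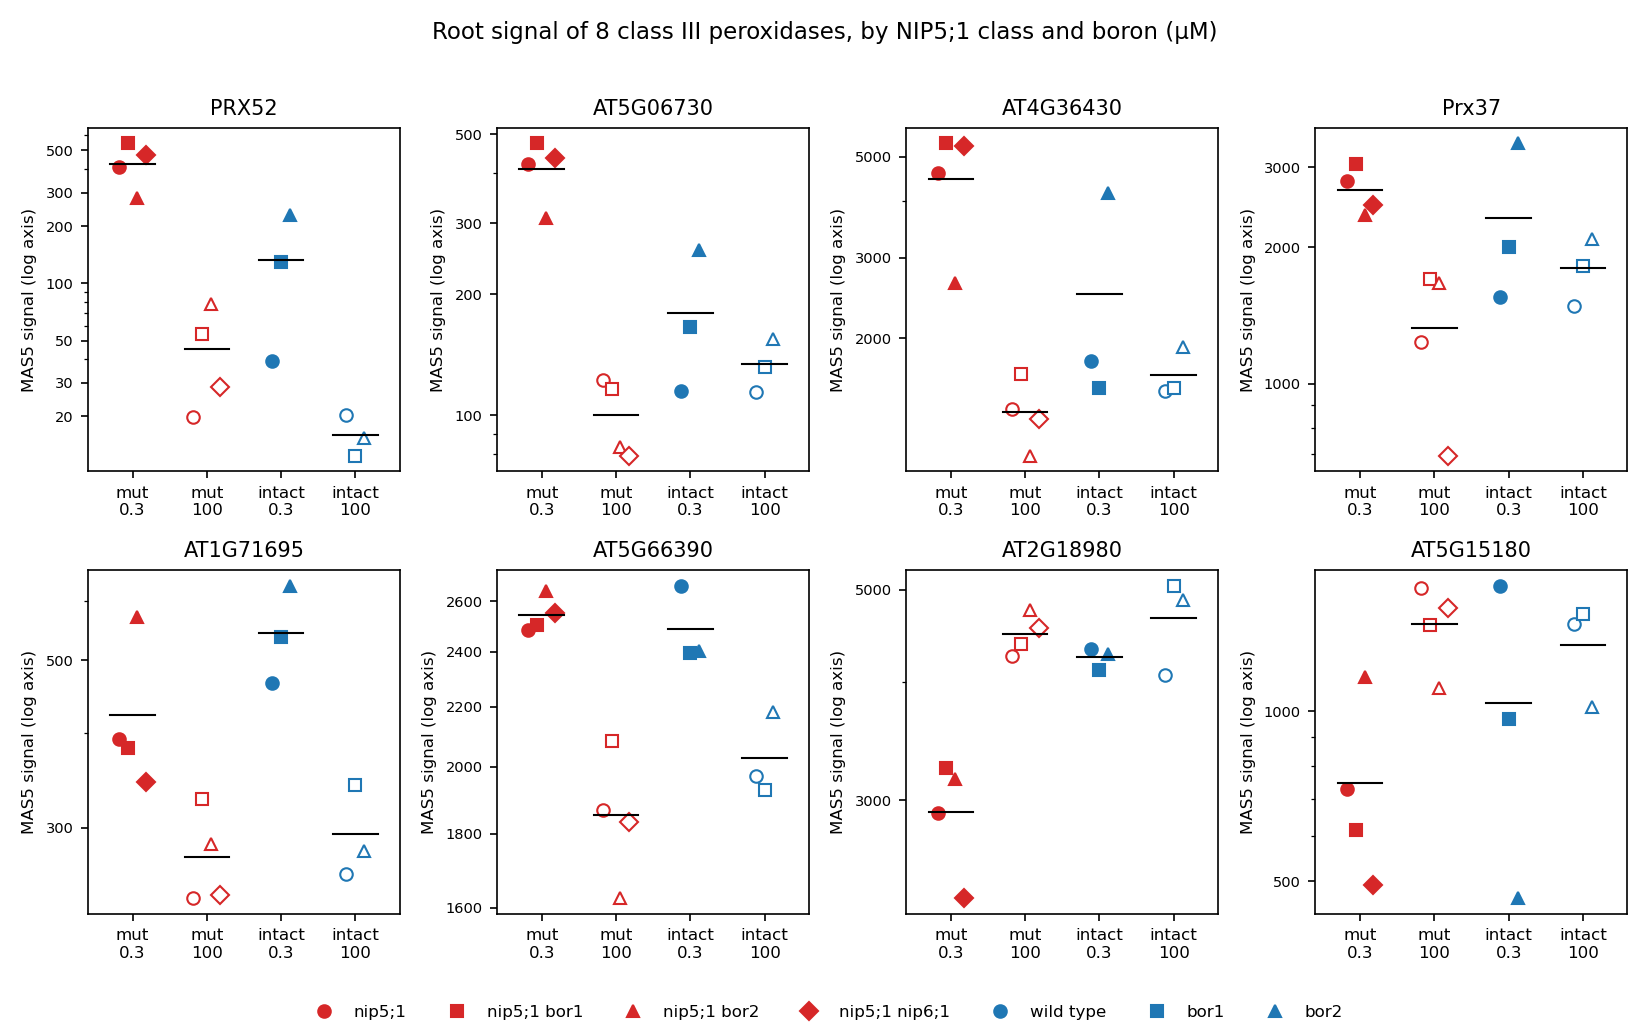
MAS5 signal on a log axis for 8 peroxidases, each point 1 array, with channel mutants (mut) and genotypes with the channel intact (intact) at 0.3 and 100 µM boron and a bar at the group mean. PRX52 lies between 279.6 and 545 units in the mutants at 0.3 µM, against 19.9 to 78.0 units at 100 µM, and AT4G36430 in the intact class is high on the bor2 array alone.

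Across the family, 11 of the 36 tested members rose and 3 fell in the channel mutants at low boron. Of all tested probe sets 5.17% changed in this comparison, 2.85% upward and 2.32% downward, whereas 14 of 36 members are 38.9%. The members were chosen with earlier results of these data known, so this contrast is not an independent one. PRX52, among the 14, also passed the signal filter through its low-boron arrays alone. The members' median difference was 0.15, beside 0.00 for all probe sets. Signals of 10 members were above, and of 1 below, their sufficient-boron range without overlap, which 6.62% and 5.45% of all probe sets also were. Of the 14 called members, 13 had the same sign in all 4 mutants, and AT5G15180 was the exception. The calls rest on these same responses, so a shared sign is favoured by the selection and adds no support.

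Besides the leading 4, the next rises in the mutants were AT1G44970, AT1G71695, PRX25 and AT2G22420. AT1G44970, a peroxidase of Casparian strip lignin, had 661, 809, 908 and 734 units in nip5;1 and its bor1, bor2 and nip6;1 double mutants at 0.3 µM, against 527, 459, 462 and 499 units at 100 µM. It rose by 0.67 (SE 0.14, adjusted p = 0.0207) with no overlap between the boron levels. AT1G71695 rose by 0.61 (SE 0.13, adjusted p = 0.0245). PRX25 (AT2G41480), a lignin peroxidase of stems, rose by 0.60 (SE 0.12, adjusted p = 0.0204), with 908 to 1048 units at 0.3 µM, against 558 to 849 units at 100 µM. AT2G22420, a peroxidase of lignifying tissue, rose by 0.55 (SE 0.13, adjusted p = 0.0352), and its 384 to 513 units at 0.3 µM touched the range of 253 to 391 units at 100 µM. The remaining rises, in AT3G49960, PRX72 (AT5G66390) and AT4G30170, were 0.31 to 0.55.

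AT2G18980, AT3G01190 and AT5G15180 fell in the mutants. AT2G18980 had 2907 units in nip5;1 and 3244, 3157 and 2367 in its bor1, bor2 and nip6;1 double mutants at 0.3 µM, against 4259, 4380, 4762 and 4561 units at 100 µM. This fall of 0.63 (log2 -0.63, SE 0.10, adjusted p = 0.0038) was the one without overlap. AT3G01190 changed by -0.45 (SE 0.09, adjusted p = 0.0215), with 4500 to 7393 units at 0.3 µM, against 6748 to 8213 units at 100 µM. AT5G15180 changed by -0.99 (SE 0.25, adjusted p = 0.0476), with 727, 616, 1150 and 492 units at 0.3 µM in the order above, against 1652, 1423, 1102 and 1525 units at 100 µM. The pair of the bor2 double mutant was nearly equal, while the other pairs were far apart.

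How firmly these calls held varied between members. PRX52, AT5G06730, AT4G36430, Prx37 and AT2G18980 passed with each of the 7 genotypes left out in turn. The other 9 did not pass without 2 to 5 of the genotypes, mostly channel mutants, with adjusted p up to 0.231. With the GAPDH ratio as a covariate 4 of 14 calls were left (PRX52, AT5G06730, AT4G36430 and AT2G18980), and with no filter on low signals 2 (AT5G06730 and AT4G36430). Without an intensity trend AT3G01190, AT3G49960, AT4G30170 and AT5G15180 did not pass, and AT5G15180 also not with a robust variance prior or the upper 40% of probe sets (adjusted p up to 0.111).

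**Figure D2:**
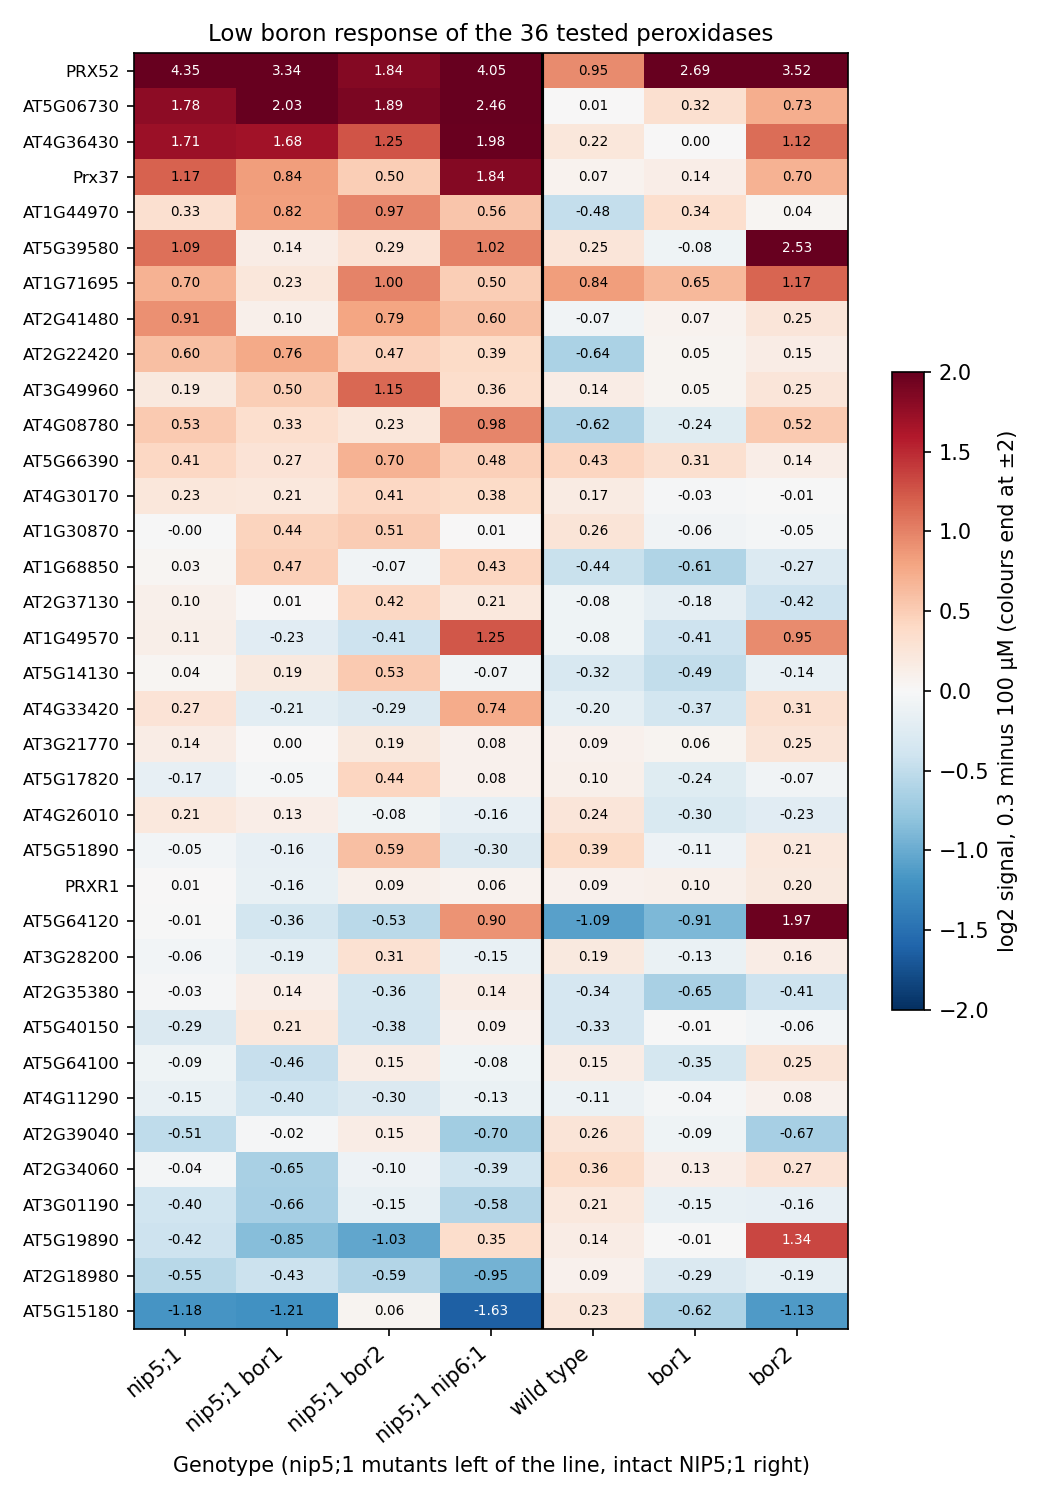
Log2 signal at 0.3 minus 100 µM boron for the 36 tested peroxidases (rows, ordered by the mean response of the channel mutants) in each of the 7 genotypes (columns), with 1 array pair per cell. PRX52 is positive throughout, from 4.35 in nip5;1 to 0.95 in wild type, while AT5G15180 runs from -1.63 in the nip6;1 double mutant to 0.23 in wild type.

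In the 3 genotypes of the intact class, 0 of 36 members passed the threshold in limma, as did 0.132% of all probe sets. At an unadjusted p under 0.05 there were 9 of 36 members and 8.43% of all probe sets. The lowest adjusted p belonged to AT1G71695. It had 537 units in bor1, 629 in bor2 and 467 in wild type at 0.3 µM, against 342, 279.5 and 261 units at 100 µM. Its value was 0.89 (SE 0.15, adjusted p = 0.0625), and it passed with the bor2 double mutant left out (adjusted p = 0.0450). Signals of 7 members were above and of 3 below the sufficient range, with 4.87% and 6.26% of all probe sets doing the same. The 3 below were AT1G68850, AT2G35380 and AT5G14130, with -0.44, -0.47 and -0.32.

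The direct test of the classes' responses called AT5G06730 alone, 1 of 36 members beside 0.11% of all probe sets (0.0733% with a positive and 0.0366% with a negative difference). An unadjusted p under 0.05 was found for 16 of 36 members and 7.53% of all probe sets. After AT5G06730 and AT4G36430 the differences with the lowest adjusted p were those of AT1G68850 (0.65, SE 0.17, adjusted p = 0.267), AT2G22420 (0.70, SE 0.20, adjusted p = 0.335) and AT2G18980 (-0.50, SE 0.15, adjusted p = 0.346).

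**Figure D3:**
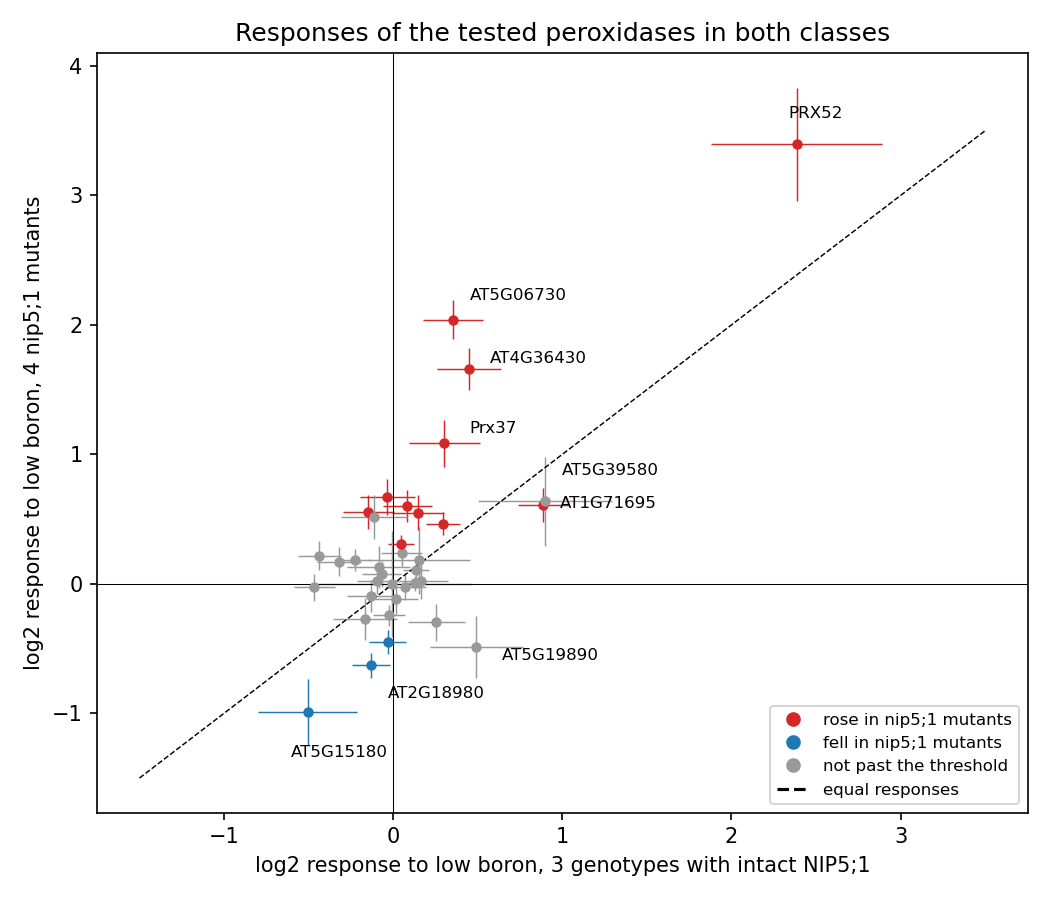
Low boron response of the 36 tested peroxidases in the channel mutants and in the intact class, as log2 differences with bars of 1 SE. AT5G06730 lies at 2.04 in the mutants and 0.35 in the intact class, and PRX52 at 3.40 and 2.38.

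Averaged over all 7 genotypes, 6 of 36 members rose and 1 fell at low boron, where 3.77% of all probe sets changed, 1.95% upward and 1.82% downward. The members' median was 0.05, beside -0.00 for all probe sets. All 7 were also among the 14 of the mutants. PRX52 rose by 2.96 (SE 0.36, adjusted p = 0.0028), AT5G06730 by 1.32 (SE 0.27, adjusted p = 0.0271), AT4G36430 by 1.14 (SE 0.21, adjusted p = 0.0205) and Prx37 by 0.75 (SE 0.18, adjusted p = 0.0414). AT1G71695 rose by 0.73 (SE 0.10, adjusted p = 0.0059). PRX72, which takes part in lignin formation, rose by 0.39 (SE 0.07, adjusted p = 0.0140). All 6 were higher at low boron in each of the 7 genotypes. For AT5G06730 in wild type (0.005) and AT4G36430 in bor1 (0.004) the levels were practically equal. The 6 were called from these same responses, so their shared sign is no added support.

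AT1G71695 and PRX72 were the members whose 7 low-boron arrays all lay above the 7 sufficient ones, which 0.586% of all probe sets also did. AT1G71695 had a lowest signal of 345, a median of 467 and a highest of 629 units at 0.3 µM, against 242, 279.5 and 342 units at 100 µM. PRX72 had 2395, 2505 and 2664 units at 0.3 µM, against 1625, 1928 and 2182 units at 100 µM. Their responses in single genotypes ran from 0.23 to 1.17 and from 0.14 to 0.70. AT2G18980 changed by -0.42 (SE 0.10, adjusted p = 0.0463) and was lower at low boron in 6 of 7 genotypes, with 0.09 in wild type. PRX52 and AT1G71695 passed with every genotype left out. PRX72 did not pass without nip5;1 (adjusted p = 0.0561). AT5G06730 and AT4G36430 did not pass without any 1 of the 4 channel mutants, Prx37 likewise and without bor2, and AT2G18980 likewise and without bor1 (adjusted p up to 0.128). Prx37 and AT2G18980 also missed the threshold with no intensity trend or no genotype block, and Prx37 with a robust variance prior (adjusted p up to 0.073). With the GAPDH covariate, 0 of the 7 passed (adjusted p = 0.0892 for PRX52 and 0.15 for AT1G71695), nor did any without the filter on low signals.

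At 0.3 µM, the channel mutants had higher signals than the intact genotypes in AT5G06730 and AT2G35380 and a lower one in AT2G18980, so 3 of 36 members passed where 0.989% of all probe sets did (0.711% higher and 0.278% lower). AT2G35380 had 854, 885, 834 and 870.4 units in nip5;1 and its bor1, bor2 and nip6;1 double mutants, against 541, 624 and 643 units in bor1, bor2 and wild type. It differed by 0.52 (SE 0.11, adjusted p = 0.0299). Its mutants at low boron were within their own range at 100 µM, 788 to 1072 units, whereas the intact genotypes lay below theirs, 811 to 848 units. The difference of AT5G06730 was 1.25 (adjusted p = 0.0212) and that of AT2G18980 was -0.55 (adjusted p = 0.0234).

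Without overlap, 7 members were above and 2 below the intact range at low boron, as were 6.42% and 3.89% of all probe sets. The second of those below was AT5G19890, with 566, 551, 619 and 349.6 units in the mutants, against 1441, 1773 and 1135 units in bor1, bor2 and wild type. It missed the threshold (-1.48, SE 0.39, adjusted p = 0.0993). None of the 3 called differences passed without wild type, bor1, nip5;1 or its bor1 or nip6;1 double mutant, with adjusted p up to 0.146. They did not pass either in a fit of the 0.3 µM arrays alone (adjusted p of 0.0646 to 0.0935) or without the filter on low signals. AT5G19890 passed in the fit of the 0.3 µM arrays alone (adjusted p = 0.0231), and AT2G35380 missed the threshold with the GAPDH covariate (adjusted p = 0.0725). Leaving out bor2 gave 6 calls beside 1.8% of all probe sets, among them AT4G36430 (1.37, adjusted p = 0.0063) and PRX52 (2.54, adjusted p = 0.0189).

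At 100 µM, 0 of 36 members and 0.0% of all 13648 probe sets passed in limma between the channel mutants and the intact genotypes. At an unadjusted p under 0.05 there were 0 members and 2.81% of all probe sets. Signals of 0 members were above and of 1, AT4G30170, below the intact range without overlap, as were 1.98% and 1.97% of all probe sets. The members leaned to lower values in the mutants, with 29 of 36 negative and a median of -0.15, beside 53.3% of all probe sets positive and a median of 0.01. The array of the nip6;1 double mutant held the lowest signal of all 14 arrays for 12 of 36 members. The share of all probe sets lowest there was not counted, so this may not be particular to the family. Without that genotype 26 of 36 were negative with a median of -0.10, and without bor1 24 of 36 with -0.12. PRX52 had 0.97 (SE 0.52) in this comparison, with several arrays near the floor.

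The members with a known part in lignin or the Casparian strip held 8 tested genes, of which 5 rose in the mutants (PRX52, AT1G44970, PRX25, AT2G22420 and PRX72) and 2 on average (PRX52 and PRX72). PRX52 entered the tested genes through its low-boron arrays alone, and without the filter on low signals none of these calls passed. Of all 36 tested members 11 rose in the mutants and 6 on average, beside 2.85% and 1.95% of all probe sets. The other 3 did not pass. They were AT4G11290, a Casparian strip peroxidase (-0.24 in the mutants), AT5G51890, a peroxidase of xylem vessels (0.02), and PRX71 (AT5G64120), which restricts growth after wall damage (-0.00). Of 9 endodermis markers only SGN3, a receptor kinase of the Casparian strip, has a named probe set, at 684 ± 99.97 units at 0.3 µM and 623 ± 74.2 units at 100 µM (SD, n = 7 each). No xylem marker of the list was named, so the part of those tissues was not tested.

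Of the root hair peroxidases 3 were tested and, with all genotypes in the fit, 0 passed in limma in any of the 8 comparisons. AT4G26010, needed for root hair growth, had 0.02 in the mutants (adjusted p = 0.932). AT5G64100 had -0.12 (adjusted p = 0.617) and AT5G39580 had 0.64 (adjusted p = 0.348), and both take part in root hair growth in the cold. The mutants had 230 to 337 units of AT5G39580 at 0.3 µM, against 136 to 208 units at 100 µM, without overlap. It passed in the mutants with the bor2 genotype left out (adjusted p = 0.0471). EXPA7 and EXPA18, the 2 named of 8 root hair markers, had 0.18 and 0.35 in the mutants and did not pass. Of the direct targets of UPB1, a transcription factor of root meristem size, AT5G17820 had 0.08 and AT4G11290 -0.24 in the mutants, again short of the threshold.

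Some members lie next to each other in the genome. Prx37 and its neighbour AT4G08780 had the same sign of response in 5 of 7 genotypes. AT4G08780 had 0.52 in the mutants (SE 0.17, adjusted p = 0.12), with 1006, 934, 828 and 641 units at 0.3 µM in nip5;1 and its bor1, bor2 and nip6;1 double mutants, against 699, 743, 704 and 325 units at 100 µM. With the bor2 genotype left out, AT4G08780 passed in the mutants (adjusted p = 0.0325). The neighbours AT5G64110 and PRX71 had the same sign in 6 of 7 genotypes. AT5G19880 was at the floor on 13 of 14 arrays, so only bor2 allowed a comparison with its neighbour AT5G19890. There both were higher at low boron (0.53 and 1.34). AT5G64100 had the same sign as AT5G64110 in 3 of 7 and as PRX71 in 4 of 7. AT5G58390 was at the floor on all 14 arrays, so it had no sign of response to compare with its neighbour AT5G58400.

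Several peroxidases were high on 1 array, that of bor2 at 0.3 µM. For 6 of the 43 members its signal was at least 1.5 times the next highest of the 14 arrays, and at least 20 units, a rule chosen after the values were seen. The same held for 1.84% of all 22746 probe sets, and for 0 members on any other array, where 0.0572% to 0.299% of all probe sets met it. AT5G39580 had 1565 units there, against 136 to 337 units on the other 13 arrays. PRX71 had 2357 units there, and its next highest array, wild type at 100 µM, had 1019. AT1G49570 had 1123 units there, and next 583 in bor2 at 100 µM.

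The remaining 3 were untested dim members. AT1G14550 had 453 units on that array and 56.4 or less elsewhere, AT5G64110 had 277 and 157 or less, and AT5G19880 had 28.8 and 8.8 or less. The array was also the highest of 14 for 11 of the 36 tested members. How many of all probe sets peaked there was not counted, so this may not be particular to the family. Without replication, the genotype and this one array cannot be told apart.

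**Figure D4:**
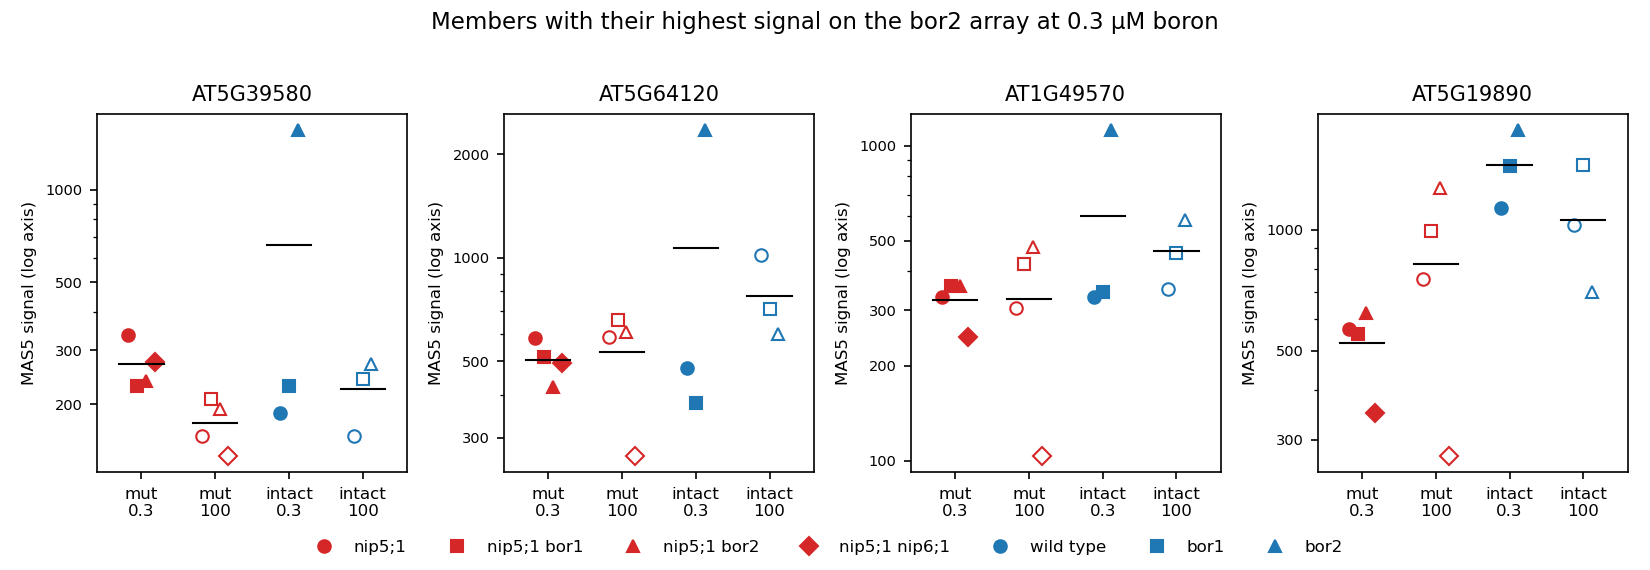
MAS5 signal on a log axis of AT5G39580, PRX71 (AT5G64120), AT1G49570 and AT5G19890 on each of the 14 arrays. On the bor2 array at 0.3 µM the first reaches 1565 units, while its other 13 arrays lie between 136 and 337 units.

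Set against wild type at 0.3 µM, bor2 had 3.06 for AT5G39580, 2.55 for PRX52, 2.30 for PRX71, 1.76 for AT1G49570 and 1.12 for Prx37. With nip5;1 as the background, the bor2 double mutant against the single mutant had -0.50, -0.55, -0.47, 0.12 and -0.24 for the same members. These were not all of the members higher in bor2 than in wild type at 0.3 µM. AT4G08780 had 1083 units in bor2 against 445 in wild type, AT4G36430 had 4159 against 1787, and AT5G06730 had 258 against 115. In the wild-type background at 0.3 µM other members had negative values, -1.84 for AT5G15180 and -0.73 for AT2G37130. In the nip5;1 background at 100 µM PRX52 had 1.96. Over both backgrounds and boron levels, 0 of 36 members passed in limma for bor2, where 0.00733% of all probe sets did, and 5 members and 7.82% of all probe sets had an unadjusted p under 0.05. With the bor2 double mutant left out, 8 members and 5.55% of all probe sets passed the threshold. That fit rests on the bor2 single mutant alone, so it cannot tell the mutation from its array at 0.3 µM. For bor1, 0 members and 0.0% of all probe sets passed, and 1 member and 2.64% of all probe sets had an unadjusted p under 0.05. That member was AT4G11290 (0.46, SE 0.08, adjusted p = 0.76). The nip6;1 mutation is present in 1 genotype and was not tested. Its largest falls against nip5;1 were at 100 µM, -1.56 for AT1G49570 and -1.46 for AT5G19890.

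The SD of the members' responses differed between genotypes, and PRX52 alone weighed heavily in it, with 4.35 in nip5;1, 2.69 in bor1 and 0.95 in wild type. The SD of the 36 log2 responses was 0.91 in nip5;1 and 0.82, 0.64 and 1.00 in its bor1, bor2 and nip6;1 double mutants, against 0.56 in bor1, 0.88 in bor2 and 0.39 in wild type. The SD over all probe sets was 0.29 to 0.42. Quartiles of the members, which 1 gene hardly moves, were -0.30 and 0.06 in bor1, -0.09 and 0.57 in bor2, and -0.14 and 0.23 in wild type. They were -0.07 and 0.44 in nip5;1, and -0.21 and 0.36, -0.12 and 0.54, and -0.09 and 0.64 in its bor1, bor2 and nip6;1 double mutants. Signals at least 2-fold higher at 0.3 than at 100 µM were seen in 5, 3, 4 and 6 members of the mutants in that order, and in 1, 6 and 0 members of bor1, bor2 and wild type. Of all probe sets, 0.938%, 1.14%, 0.967% and 1.14% were as much higher in the mutants in that order, and 0.205%, 2.26% and 0.352% in bor1, bor2 and wild type.

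At the other end, PRXR1 (AT4G21960) stayed bright and nearly level, with a lowest signal of 17223, a median of 18604 and a highest of 19991 units at 0.3 µM, against 16237, 17859 and 19184 units at 100 µM. Its average difference was 0.06 (SE 0.05, adjusted p = 0.532). In all, 15 members passed in at least 1 of the 8 comparisons and 21 in none. The 7 members under the filter had medians over the 14 arrays of 2.15 to 83.2 units. PER36 (AT3G50990) and AT5G58390 were at the floor on all 14 arrays.

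Other genes around the peroxidases were sparsely named on the array. Of RBOH oxidases, which make the superoxide that yields hydrogen peroxide, 3 of 10 were named and 0 of the 3 tested passed on average, with -0.15 for RBOHG, -0.01 for RBOHI and 0.11 for RBOHE. Of monolignol synthesis genes, 2 of 19 were tested and neither passed. CCR2 had 0.40 on average (adjusted p = 0.0963) and 0.55 in the mutants (adjusted p = 0.0663), and HCT had 0.19 and 0.15. Of the ascorbate peroxidases SAPX had 0.14, and of the extensins and related proteins EXT9 had 0.23 and LRX4 -0.09, none of them past the threshold. The 1 named laccase was below the filter, and no catalase or glutathione peroxidase of the lists was named. RCA, the 1 named shoot marker of 7, had 547 ± 325 units at 0.3 µM and 487 ± 137 units at 100 µM (SD, n = 7 each), with 0.05 on average, and its part in the results was not tested.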

How the data were processed

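The authors deposited MAS5 intensity values, on a linear scale, per the submitters' processing notes. Which MAS5 version was run is not stated in those sources. No detection calls were used, and the number of arrays limits the precision. Arrays were each scaled to a common 2% trimmed mean, values under the 20th percentile (20 signal units) were set to it, and log2 was taken. Of 22810 probe sets, 64 controls were left out, and the upper 60% by mean signal (at least 113 units) were tested, 13648 in all. A log2 change of a gene near the floor is understated.

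Tests used limma 3.58.1 with statmod 1.5.0 in R 4.3.3 (eBayes with an intensity trend), two-sided, Benjamini-Hochberg over all tested probe sets. Genotype was a fixed block for the boron responses and a random block (correlation 0.105) for the class comparisons at each boron level. The bor1 and bor2 fits were additive and counted arrays of a genotype as independent. Fits were tested on simulated data. Python 3.11.15, numpy 2.4.6, pandas 2.3.3 and matplotlib 3.10.9 did the rest.

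Probe sets were assigned to genes by the platform annotation and the RefSeq table of TAIR10.1. The symbols Prx37, PRX52 and PRXR1 are from that table, and PRX25, PRX71, PRX72 and PER36 are not. The members and lists were chosen with earlier results of these data known. Every member past the threshold in any of the 8 comparisons is named, with full statistics for up to 8 rises and 4 falls, and so are members of the role groups. Alternatives were quantile normalization, a lower floor, no filter or the upper 40%, no intensity trend, a robust prior, the GAPDH ratio as a covariate, no genotype block, 1 boron level alone, and each genotype left out. Promoter motifs and protein identity were not analysed here.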

Additional observations from a re-analysis of the deposited data

Results flagged for a closer look

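AT3G49960 had a response of 1.15 in the nip5;1 bor2 double mutant, far from those of the other 6 genotypes, which ran from 0.05 to 0.50. It was the 1 member of 36 with a genotype so far apart by Dixon's test, and chance alone gives such a gap in about 1 of 20 groups. Its rise in the channel mutants (0.55, adjusted p = 0.0403) did not pass without that genotype, wild type, bor1 or the bor1 or nip6;1 double mutant.

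AT5G06730 responded more strongly in the channel mutants than in the intact class, by 1.69 (limma adjusted p = 0.0241), with 1.78 to 2.46 in the 4 mutants, against 0.01 to 0.73 in the 3 intact genotypes.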

How the results depend on the processing

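The 25 calls of members were recomputed 354 times under the alternatives, of which 229 kept the call, 125 lost it and 0 changed sign. Over all 36 members, 22 further calls appeared, 0 of them with the opposite sign. Without the filter on low signals the count of members called became 0 for the average response, 2 for the channel mutants, 0 for the difference of the responses and 0 between the classes at 0.3 µM. With the GAPDH ratio as a covariate it became 0 for the average and 4 for the mutants. With the upper 40% of probe sets, which hold neither AT5G06730 nor PRX52, it became 0 for the difference. Fitted at 0.3 µM alone, it became 1 between the classes. Leaving out each genotype in turn gave 2 to 10 calls for the average, 5 to 16 for the mutants, 0 to 1 for the intact class, 0 to 2 for the difference, 0 to 6 between the classes at 0.3 µM and 0 to 8 for bor2. The 8 for bor2 came with the bor2 double mutant left out, when the bor2 single mutant alone carried the mutation. Leaving out a genotype also leaves fewer arrays, and beyond that the cause was not tested. The fits paired the arrays of the 2 boron levels by genotype as a block, and without that block the average response had 5 calls. No paired analysis was possible by replicate number, since every array carries number 1.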

Other observations

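The 3 probe sets that each name a pair of peroxidase loci stand outside the members. The probe set of AT2G38390 and AT2G38380 fell by 0.32 on average (log2 -0.32, SE 0.06, limma adjusted p = 0.0209) and by 0.34 in the channel mutants (log2 -0.34, SE 0.08, adjusted p = 0.0406). It had 6699 ± 793 units at 0.3 µM and 8394 ± 1265 units at 100 µM (SD, n = 7 each), and the highest signal was 10800.1 units in bor2 at 100 µM. The probe set of AT2G18150 and AT2G18140 rose by 0.57 in the channel mutants (SE 0.14, adjusted p = 0.0436), with 1565, 1835, 1208 and 1569 units in nip5;1 and its bor1, bor2 and nip6;1 double mutants at 0.3 µM, against 1068, 1042, 905 and 1126 units at 100 µM, without overlap. The intact class had -0.11 (SE 0.16, adjusted p = 0.908) for it. The probe set of AT4G37530 and AT4G37520 had -0.32 on average (SE 0.09, adjusted p = 0.0827).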
